A study of Mus musculus with 6 samples.

Results

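Cdh12 and 9 other cadherin genes of the nervous system (Cdh2, Cdh4, Cdh6, Cdh8, Cdh9, Cdh10, Cdh11, Cdh13 and Cdh20) were described in 6 brain libraries, as 10 of the 36210 gene rows in the deposited table. Cdh12 was chosen by its measured decrease between the treatment groups, with the call that goes with it. The other 9 were listed by symbol from the same gene family, when results of these data were already known. Their differences between the groups are therefore given as descriptions, and no call of a member is read as a result. All 6 libraries came from APP/PS1 mice at 8 months of age, a line with mutant transgenes for amyloid precursor protein and presenilin that forms amyloid plaques. The vehicle group (3 libraries) had received 0.9% saline, and the AVE0991 group (3 libraries) 10 mg/kg of AVE0991, a synthetic agonist of the Mas receptor for angiotensin-(1-7). Both were given by daily intraperitoneal injection over 30 days. The labels used here name neither the promoters that drive the transgenes nor the number of animals behind a library. Mice without the transgenes were not analysed here.

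Cadherins are membrane proteins that bind the same or a related cadherin on a neighbouring cell in the presence of calcium, and their cytoplasmic tails hold beta-catenin and p120-catenin, which link them to actin through alpha-catenin. Cdh2 (N-cadherin) and Cdh4 (R-cadherin) are type I cadherins, and Cdh2 acts broadly in neural tissue. The type II cadherins Cdh6, Cdh8, Cdh9, Cdh10, Cdh11, Cdh12 and Cdh20 are expressed in restricted sets of neurons and brain regions, where they take part in sorting cells and in choosing synaptic partners. Cdh13 (T-cadherin) has no cytoplasmic tail and is held in the membrane by a lipid anchor.

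The libraries held 44583296 to 50066692 estimated counts on gene rows. Levels are given below as CPM, estimated counts scaled to a common library size and composition, or as the deposited FPKM, which also divides by transcript length. Values per library are in the order of replicates 1, 2 and 3. The labels call the cells astrocytes. The 14 astrocyte markers summed to 7375 to 8557 CPM in the vehicle group and 8608 to 10862 CPM in the AVE0991 group, but 13 neuron markers summed to 5800 to 6593 and 5512 to 6031 CPM, and no marker of either list was at 0. Of the astrocyte markers, 13 had a higher and 1 (Slc1a2) a lower fitted level in the AVE0991 group, with a median log2 fold change of 0.63. Of the neuron markers, 7 were higher and 6 lower, with a median of 0.15. None of either list was called. Summed over 9 oligodendrocyte markers, the libraries stood at 3725, 8007 and 8087 CPM in vehicle and 5616, 11987 and 5979 CPM in AVE0991. Choroid plexus and ependymal markers summed to 144, 1399 and 781 CPM in vehicle and 390, 570 and 393 CPM in AVE0991. Vehicle replicate 1 was lowest in both sums. Its chi-square per gene was 54.0 and 60.8 against vehicle replicates 2 and 3, beside 16.4 between those. AVE0991 replicates 2 and 3 stood apart in 9 cerebellar granule cell markers, with sums of 1588 and 1601 CPM against 222 to 263 CPM in the other 4 libraries. All 9 of these markers had a higher fitted level in the AVE0991 group. The granule cell marker Gabra6, a GABA-A receptor subunit, was at 93.0 and 94.5 CPM in those libraries and at 1.18 to 5.75 CPM in the others. AVE0991 replicate 1 differed from the other libraries in some olfactory bulb markers. Doc2g was at 23.9 CPM there and at 1.65 to 2.47 CPM elsewhere, and Cdhr1 at 43.5 and 3.54 to 8.27 CPM. Trh and Lbhd2 were also highest there, but Th and Slc17a6 were not. Eomes and Shisa8 were above every vehicle library in all 3 AVE0991 libraries. Eomes was at 0.777 to 1.37 CPM in vehicle and at 8.18, 8.19 and 7.94 CPM in AVE0991 replicates. Shisa8 was at 3.23 to 4.03 CPM and at 9.69, 28.0 and 31.9 CPM. Of the 8 olfactory bulb markers 1 was called, beside 0.864% of all genes. In such bulk RNA, fewer cells of a type and less RNA per cell cannot be told apart.

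Cdh12 lies on chromosome 15, in a run of type II cadherin genes with the order Cdh6, Cdh9, Cdh10, Cdh12, Cdh18 in the RefSeq annotation of GRCm38.p6. No protein-coding gene lies between Cdh6 and Cdh9, Cdh9 and Cdh10, or Cdh10 and Cdh12, and 1 (Acot10) lies between Cdh12 and Cdh18. The files follow mm9, so GRCm38 served only for names, order and sequence. The windows from 250 bases before to 50 after a RefSeq start are shown for Cdh9, Cdh10 and Cdh12, the 3 genes of this run whose AVE0991 libraries all lay below the vehicle libraries. Each is read 5′ to 3′ on the plus strand, at chr15:16728665-16728964, chr15:18820079-18820378 and chr15:21111202-21111501, with each CG pair in capitals.
Cdh9: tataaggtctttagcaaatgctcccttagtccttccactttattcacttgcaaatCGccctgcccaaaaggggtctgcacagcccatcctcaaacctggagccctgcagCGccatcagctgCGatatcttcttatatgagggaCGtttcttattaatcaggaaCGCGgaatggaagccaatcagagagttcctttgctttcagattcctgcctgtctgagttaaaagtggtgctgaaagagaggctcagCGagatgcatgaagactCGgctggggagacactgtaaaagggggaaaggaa
Cdh10: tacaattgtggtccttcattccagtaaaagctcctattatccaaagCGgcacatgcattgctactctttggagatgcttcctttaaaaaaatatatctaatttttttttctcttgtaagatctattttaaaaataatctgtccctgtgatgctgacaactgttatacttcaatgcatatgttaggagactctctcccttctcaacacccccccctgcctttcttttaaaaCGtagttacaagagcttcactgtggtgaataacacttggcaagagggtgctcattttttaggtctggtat
Cdh12: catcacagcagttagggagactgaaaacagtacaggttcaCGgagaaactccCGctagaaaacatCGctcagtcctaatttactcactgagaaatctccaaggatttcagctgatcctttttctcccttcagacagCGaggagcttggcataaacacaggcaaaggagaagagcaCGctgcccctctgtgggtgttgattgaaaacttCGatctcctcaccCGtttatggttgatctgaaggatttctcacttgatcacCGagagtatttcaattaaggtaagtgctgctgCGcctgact
The Cdh12 window held 9 CG pairs and had a GC content of 46.7%. The Cdh9 window held 8 at 48.7%, and the Cdh10 window 2 at 37.7%. Across 27025 such windows, 1 per gene, the median was 7 CG pairs and 52.7% GC. The letters CANNTG, an E-box, occurred 2 times in the Cdh12 window, 3 times in that of Cdh9 and 5 times in that of Cdh10, and 72.1% of all windows held at least 1. TATAAA, searched on both strands like the other motifs, was in none of the 3 windows and in 14.2% of all windows. CCAAT occurred 1 time in the Cdh9 window, in neither of the other two, and in 37.9% of all windows. RefSeq windows were matched for 6 of the 10 genes (Cdh6, Cdh8, Cdh9, Cdh10, Cdh12 and Cdh20).

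Cdh12, also known as brain cadherin, had the most negative difference of the 10 genes, both as fitted and after the GC correction described below. It stood at 62.1, 39.6 and 50.5 CPM in vehicle replicates 1, 2 and 3 and at 19.5, 15.9 and 20.7 CPM in AVE0991 replicates 1, 2 and 3. The groups did not overlap, and the lowest vehicle library was replicate 2. The means were 50.7 ± 11.3 CPM in the vehicle group and 18.7 ± 2.49 CPM in the AVE0991 group (SD, n = 3 each), a fitted difference of 2.71-fold (log2 fold change -1.44, SE 0.19). Ordered from the most negative fitted change, Cdh12 was at place 345 of the 20363 genes tested. In the authors' deposited table the log2 fold change of Cdh12 was -1.42. Against vehicle, AVE0991 replicate 1 alone, the library without the raised cerebellar markers, stood at -1.37 (SE 0.26). That fit assumes that the lone treated library varies like the others, and that library was itself apart in Doc2g and Cdhr1. With a correction of each library for its relation to transcript GC content, the log2 fold change of Cdh12 was -0.81 (SE 0.15), and the groups still did not overlap. The call by which Cdh12 was chosen was lost with that correction and without any single library other than AVE0991 replicate 1.

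Its neighbours Cdh9, Cdh10 and Cdh6 were lower as well, by smaller amounts. Cdh9, a type II cadherin of hippocampal synapses, stood at 18.7, 12.9 and 11.6 CPM in vehicle replicates 1 to 3 and at 10.2, 3.22 and 7.51 CPM in AVE0991 replicates 1 to 3. The groups did not overlap, but AVE0991 replicate 2 was far below the other libraries, and the log2 fold change of -1.04 (SE 0.41) was -0.69 without it. Cdh10, which can bind Cdh6 and Cdh9 across cell contacts, stood at 39.7, 37.9 and 43.8 CPM in the vehicle group and 29.9, 23.9 and 23.1 CPM in the AVE0991 group. These did not overlap either (log2 fold change -0.66, SE 0.13). Cdh6 stood at 14.6, 21.2 and 22.9 CPM in the vehicle group and 15.5, 12.5 and 8.33 CPM in the AVE0991 group. For Cdh6, vehicle replicate 1 lay below AVE0991 replicate 1, so the groups overlapped (log2 fold change -0.69, SE 0.26). Without AVE0991 replicates 2 and 3 the values were -0.48 for Cdh9, -0.43 for Cdh10 and -0.33 for Cdh6.

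Of the type II cadherins on other chromosomes, Cdh8 and Cdh11 were lower, and Cdh20 overlapped between the groups. Cdh8, expressed in restricted sets of cortical neurons, stood at 53.4, 48.2 and 47.2 CPM in the vehicle group and 33.7, 31.6 and 38.7 CPM in the AVE0991 group (log2 fold change -0.52, SE 0.11). Cdh11, a cadherin also of mesenchymal cells, stood at 70.8, 57.7 and 60.4 CPM in the vehicle group and 42.3, 31.0 and 44.4 CPM in the AVE0991 group (log2 fold change -0.68, SE 0.16). Neither gene overlapped between the groups. Cdh20 stood at 36.8, 36.0 and 42.5 CPM in the vehicle group and 26.1, 44.8 and 38.2 CPM in the AVE0991 group. Its lowest and its highest library were both AVE0991 libraries, and the log2 fold change was -0.08 (SE 0.20). AVE0991 replicates 2 and 3, the libraries with the raised cerebellar markers, were above replicate 1 for Cdh20. With replicate 1 as the only treated library the log2 fold change of Cdh20 was -0.55 (SE 0.15), and without it 0.11.

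Cdh2, the most abundant of the 10 by CPM, overlapped between the groups in CPM. It stood at 145, 128 and 128 CPM in the vehicle group and 133, 134 and 134 CPM in the AVE0991 group, which lay inside the vehicle range (log2 fold change 0.00, SE 0.09). In FPKM, however, its AVE0991 libraries (28.28, 27.3 and 27.4) all lay below the vehicle libraries (33.0, 28.7 and 28.36), with a log2 fold change of -0.11 on the log2(FPKM + 0.1) scale. Cdh4 was the 1 gene with all AVE0991 libraries above all vehicle libraries in CPM, at 26.7, 26.7 and 30.0 CPM in the vehicle group and 42.1, 33.1 and 30.1 CPM in the AVE0991 group. The margin between AVE0991 replicate 3 and vehicle replicate 3 was small, and the log2 fold change of 0.34 (SE 0.14) was 0.19 without AVE0991 replicate 1. Cdh4 overlapped between the groups in FPKM (0.15 on the log2(FPKM + 0.1) scale) and after the GC correction (0.18, SE 0.14). Cdh13 stood at 73.2, 65.9 and 68.7 CPM in the vehicle group and 81.0, 52.5 and 42.5 CPM in the AVE0991 group. The vehicle libraries of Cdh13 lay close together, whereas the AVE0991 libraries were both above and below them (log2 fold change -0.24, SE 0.23; 0.23 with AVE0991 replicate 1 alone).

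**Figure D1:**
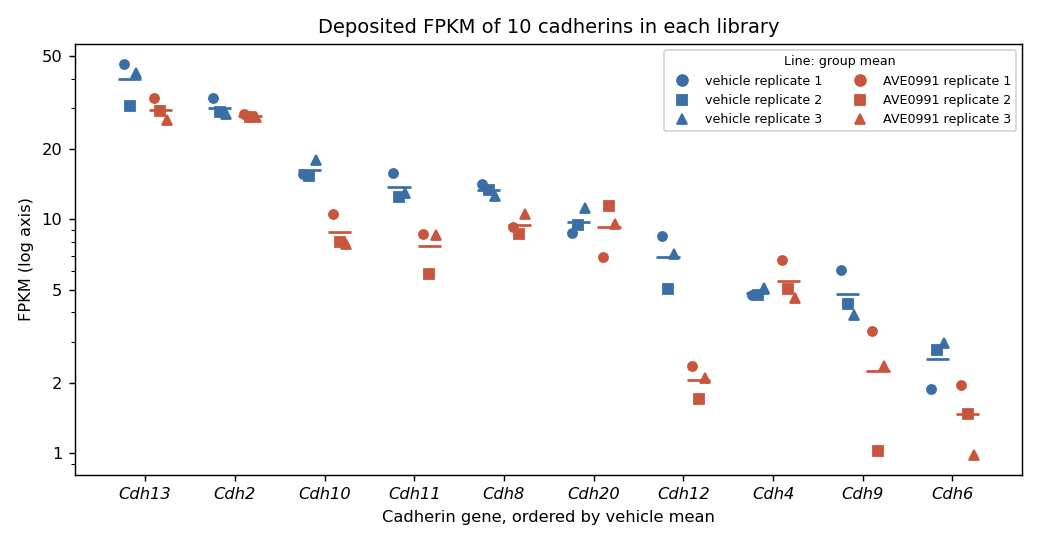
Deposited FPKM of the 10 cadherin genes (log axis) in each of 3 vehicle (blue) and 3 AVE0991 (red) libraries, ordered by the vehicle mean, with lines at the group means. The Cdh12 libraries lie at 5.03 to 8.48 FPKM in vehicle and 1.70 to 2.35 FPKM in AVE0991, while the Cdh2 libraries lie at 28.36 to 33.0 FPKM in vehicle and 27.3 to 28.28 FPKM in AVE0991.

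All 10 genes passed the filter on low counts. By edgeR's quasi-likelihood test at an adjusted p under 0.05, the rule behind the choice of Cdh12, 1 of the 10 was called lower (Cdh12) and 0 higher. Over all genes tested, 0.83% were called lower, 0.0344% higher and 0.864% in either direction; since Cdh12 was chosen on this contrast, nothing is read from that count. The count of the 10 that passed depended on the fit. DESeq2 called 4 (Cdh8, Cdh10, Cdh11 and Cdh12) beside 10.9% of all genes, and limma-voom 2 (Cdh10 and Cdh12) beside 6.36%. Cdh10 and Cdh12 also passed in edgeR without a filter (1.3% of all genes) and in limma on log2 FPKM with a pseudocount of 0.1 (1.44%) or 1 (1.57%). Without AVE0991 replicate 1, edgeR called 3 (Cdh10, Cdh12 and Cdh13) beside 11.4% of all genes. These fits use the contrast that was known when the genes were listed, so nothing is read from their counts either. All AVE0991 libraries lay below all vehicle libraries for 5 of the 10 genes (Cdh8, Cdh9, Cdh10, Cdh11 and Cdh12), as for 16.3% of all genes tested. They lay above for 1 (Cdh4), as for 14.3% of all genes, and the other 4 overlapped. The median log2 fold change of the 10 was -0.59, beside -0.01 over all genes. In single libraries the median of the 10 relative to the vehicle mean was -0.45, -0.64 and -0.60 in AVE0991 replicates 1, 2 and 3 and -0.08 to 0.09 in vehicle libraries.

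The cadherins with the lower differences were those with GC-poor transcripts. GC content was taken from each gene's longest protein-coding GENCODE M21 transcript. The 6 cadherins at or below 45% GC (Cdh6, Cdh8, Cdh9, Cdh10, Cdh11 and Cdh12) ran from 38.6% to 44.9% GC and from -1.44 to -0.52 in log2 fold change. The other 4 ran from 49.5% to 54.6% GC and from -0.24 to 0.34. Over all genes tested, the median log2 fold change was -0.62 for 847 genes at up to 40% GC, -0.29 for 3024 genes between 40 and 45%, and 0.18 for 4196 genes above 55%. After the GC correction, the median of the 10 was -0.35 and 3 genes (Cdh10, Cdh11 and Cdh12) still did not overlap. The share of all genes without overlap is not given for corrected values, so nothing is read from this count. Corrected log2 fold changes were -0.58 for Cdh9 (SE 0.41), -0.52 for Cdh11 (SE 0.15), -0.39 for Cdh10 (SE 0.13), -0.37 for Cdh6 (SE 0.28) and -0.19 for Cdh8 (SE 0.10). Cdh13, at 51.5% GC, moved the other way, from -0.24 to -0.34. The part of GC content in these differences was not tested, and the labels used here do not say whether the groups were prepared apart.

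**Figure D2:**
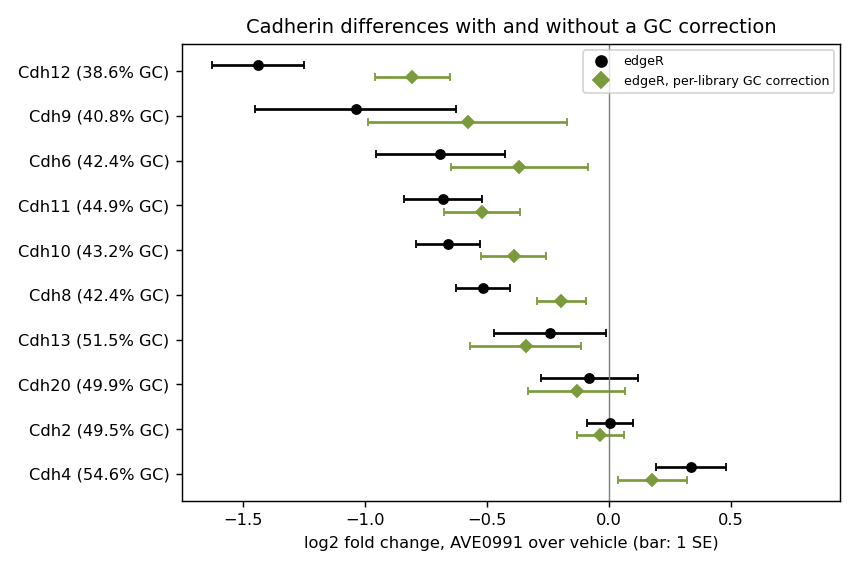
Log2 fold change (AVE0991 over vehicle) of each cadherin gene with 1 SE on either side, from edgeR without (black circles) and with (green diamonds) a correction of each library for transcript GC content. Cdh12 goes from -1.44 to -0.81 and stays the lowest of the 10, and Cdh2 is at 0.00 and -0.04.

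Per transcript length the mean levels of the cadherins spanned 2.54 to 39.8 FPKM in vehicle libraries. Cdh13 had the highest mean at 39.8 ± 8.29 FPKM, followed by Cdh2 at 30.0 ± 2.59 FPKM (SD, n = 3), and their ranges overlapped although Cdh13 was higher in each vehicle library. Cdh10 (16.3 ± 1.40 FPKM), Cdh11 (13.8 ± 1.83) and Cdh8 (13.4 ± 0.740) came next, with overlapping ranges between neighbours. Cdh20 stood at 9.79 ± 1.28 FPKM and Cdh12 at 6.88 ± 1.74 FPKM, without overlap between the 2. Cdh4 (4.86 ± 0.217 FPKM) and Cdh9 (4.78 ± 1.17) were not separated from each other, nor was Cdh4 from Cdh12 by range, and Cdh6 was lowest at 2.54 ± 0.571 FPKM. In AVE0991 libraries Cdh12, at 2.05 ± 0.328 FPKM, went from place 7 to place 9, and only Cdh6 was lower, at 1.47 ± 0.485 FPKM. Cdh8 went from place 5 to 3 and Cdh10 from place 3 to 5. These places go by means, and the AVE0991 ranges overlapped. Cdh8 ran from 8.63 to 10.51 FPKM, Cdh20 from 6.91 to 11.43 and Cdh10 from 7.87 to 10.54. Cdh12, from 1.70 to 2.35 FPKM, lay inside the range of Cdh9, from 1.02 to 3.34, and overlapped with Cdh6, from 0.98 to 1.95. The 10 genes summed to 155, 127 and 145 FPKM in vehicle replicates 1 to 3 and to 111, 99.4 and 101 FPKM in AVE0991 replicates 1 to 3. Cdh12 made up 3.97% to 5.47% of that sum in vehicle and 1.71% to 2.12% in AVE0991 libraries, and Cdh2 19.6% to 22.7% and 25.5% to 27.5%.

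The deposited counts and FPKM of Cdh12 did not change by the same factor. Its mean FPKM was 3.36-fold lower in AVE0991 libraries, against 2.71-fold for its mean CPM. The CPM were also scaled for library composition, so these ratios can differ in more than transcript length. For Cdh2 the ratio of the vehicle to the AVE0991 mean was 1.09 in FPKM and 0.997 in CPM. Dividing the estimated count by the FPKM and by the library's total over gene rows gives a transcript length, called the implied length here. The total that the authors divided by is not stated and the unit was inferred, so absolute implied lengths are approximate. For Cdh12 the implied length was 7453, 8203 and 7285 bases in vehicle replicates 1 to 3 and 8298, 8960 and 9393 bases in AVE0991 replicates 1 to 3. The groups did not overlap, and all values exceeded the longest GENCODE M21 transcript of Cdh12, at 6004 bases. The log2 ratio of the mean implied lengths was 0.22 for Cdh12, beside a range from -0.09 to 0.07 between the 5th and the 95th percentile of 12794 genes with an FPKM of at least 1 in every library.

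The labels used here do not say which transcripts the authors' annotation held. The implied length lay above the vehicle range in all AVE0991 libraries for 5 of the 10 cadherins (Cdh2, Cdh4, Cdh10, Cdh11 and Cdh12), as for 5.42% of those 12794 genes. It lay below for 2 (Cdh8 and Cdh20), as for 8.41%. For Cdh10 it was 2516 to 2581 bases in vehicle and 2790 to 2869 bases in AVE0991 libraries, and for Cdh8 3766 to 3848 and 3504 to 3642 bases. GENCODE lists several transcripts for both, with a longest protein-coding one of 3407 bases for Cdh10 and 4594 bases for Cdh8. The deposited FPKM has few decimals, which blurs the implied length of low genes, and 1 of the 10 (Cdh6) had an FPKM under 1 in a library. Cdh13 was uneven inside both groups, at 1604, 2254 and 1670 bases in vehicle and 2457, 1732 and 1522 bases in AVE0991 libraries, all below its protein-coding transcript of 3785 bases. Its place at the top of the FPKM order rests on these short implied lengths: by CPM, Cdh2 (133 ± 9.86 CPM) was above Cdh13 (69.3 ± 3.68 CPM) in vehicle libraries.

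**Figure D3:**
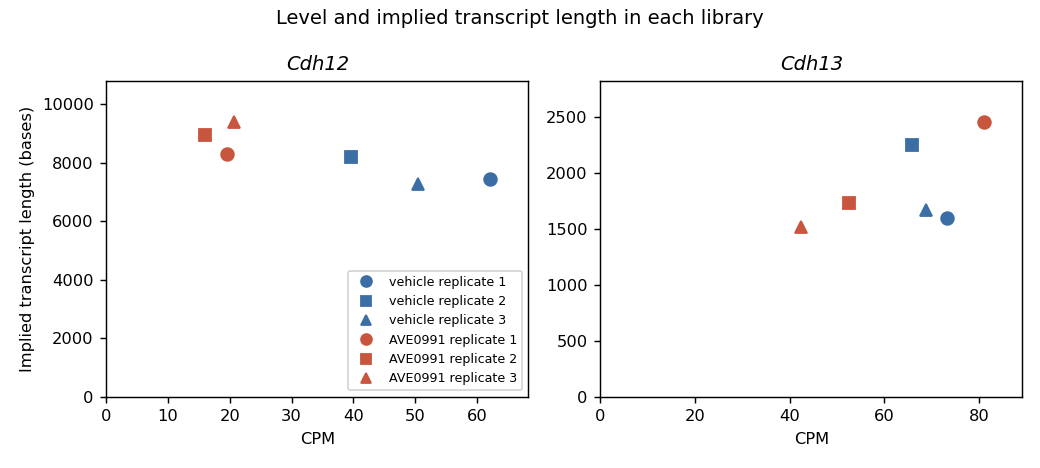
CPM (horizontal axis) against implied transcript length in bases (vertical axis) of Cdh12 and Cdh13 in each vehicle (blue) and AVE0991 (red) library, with symbols for replicates 1 to 3. For Cdh12 the AVE0991 libraries lie lower in CPM and higher in implied length, at 8298 bases or more, while for Cdh13 the groups mix.

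Of 13 further cadherins, 11 were tested (Cdh16 and Cdh17 were too low). Among these 1 was called lower and 0 higher, beside 0.83% and 0.0344% of all genes tested. Of the 11, 8 had a positive and 3 a negative log2 fold change, with a median of 0.35. Over all genes tested, 50.7% were below 0. With AVE0991 replicate 1 as the only treated library, 5 were positive and 6 negative, with a median of -0.01. The called gene was Cdh19, a type II cadherin, which fell 1.80-fold from 12.5, 12.9 and 13.4 CPM in vehicle to 6.88, 7.97 and 6.70 CPM in the AVE0991 group (log2 fold change -0.85, SE 0.12, edgeR adjusted p = 0.043). Its transcript has 37.4% GC, and after the GC correction it stood at -0.13 (adjusted p = 0.683). Without single libraries its adjusted p was 0.0191 to 0.227, and it passed only without AVE0991 replicate 1, while its log2 fold change stayed between -0.92 and -0.79. Cdh1 (E-cadherin) had the next smallest p and did not pass, with 6.38 ± 0.506 CPM under vehicle and 11.5 ± 2.37 CPM under AVE0991 (edgeR log2 fold change 0.85, SE 0.18, adjusted p = 0.0803).

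Several of these other cadherins were highest in AVE0991 replicates 2 and 3, the libraries with raised cerebellar markers. They are named after their values were seen, and the part of cerebellar tissue in them was not tested. Cdh15 (M-cadherin), which is known from muscle and from cerebellar granule cells, stood at 2.21 to 2.29 CPM in the vehicle group and at 2.91, 23.8 and 24.8 CPM in the AVE0991 group. Cdh18, the neighbour of Cdh12 on chromosome 15, stood at 28.2 to 31.0 CPM in the vehicle group and at 20.3, 38.8 and 53.4 CPM in the AVE0991 group. Cdh7 showed the same order, with 19.7 to 24.5 CPM in vehicle and 14.5, 33.2 and 35.3 CPM in AVE0991 replicates. Cdh22 was above the vehicle range in every AVE0991 library, at up to 54.1 CPM in the vehicle group and 64.4, 101 and 97.0 CPM in the AVE0991 group. None of these 4 passed (adjusted p of 0.085 or more by edgeR). With AVE0991 replicate 1 as the only treated library, Cdh18 stood at -0.53 and Cdh7 at -0.55, the opposite sign to their values with all libraries, 0.35 and 0.37. Cdh12 lay between 15.9 and 20.7 CPM in all 3 AVE0991 libraries, and the part of tissue in its level was not tested either.

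**Figure D4:**
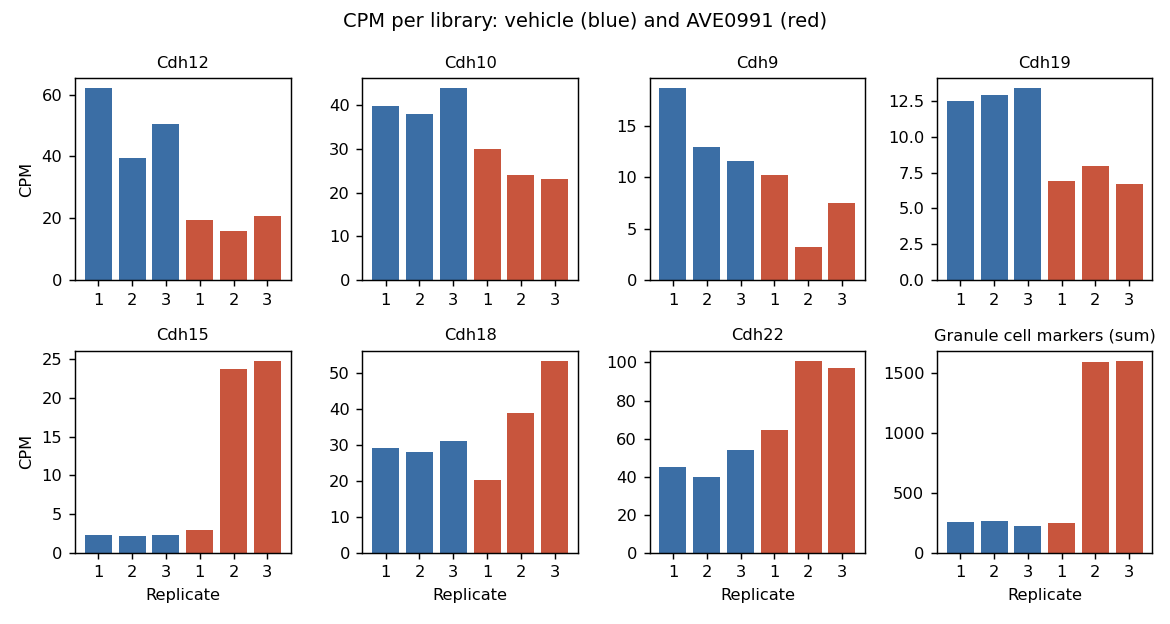
CPM in each library (bars from 0; blue vehicle, red AVE0991) of Cdh12, Cdh10, Cdh9, 4 other cadherins and the sum of 9 cerebellar granule cell markers. Cdh12, Cdh10, Cdh9 and Cdh19 are below the vehicle libraries in all 3 AVE0991 libraries, whereas Cdh15, Cdh18 and Cdh22 are highest in AVE0991 replicates 2 and 3, the libraries in which the marker sum is 1588 and 1601 CPM.

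Markers of forebrain neurons were set beside the members. The summed level of 10 cortical and hippocampal excitatory neuron markers was 1573 to 2331 CPM in the vehicle group and 1907, 910.0 and 1971 CPM in the AVE0991 group, with 9 of 10 markers lower in the fit and none at 0. AVE0991 replicate 2, the lowest library for these markers, was also the lowest for Cdh9, Cdh8, Cdh11 and Cdh12. Cdh6, Cdh10 and Cdh13 were lowest in AVE0991 replicate 3 and Cdh20 in AVE0991 replicate 1. For 8 striatal projection neuron markers the sums were 365 to 819 CPM in the vehicle group and 1100, 298 and 313 CPM in the AVE0991 group. Cdh4 and Cdh13 were likewise highest in AVE0991 replicate 1. The part of these cell types in the cadherin differences was not tested.

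None of the genes listed as working with cadherins passed the edgeR test. Of 14 catenins and junction partners, all tested, 0 were called by edgeR. An unadjusted p under 0.05 was reached by 4, and by 23.6% of all genes tested (4796 of 20363). DESeq2 called 3, beside 10.9% of all genes, and limma-voom 2, beside 6.36%. Of the 14, 9 were above and 5 below 0, with a median of 0.12. Ctnnb1, which encodes beta-catenin, stood at 447 ± 9.99 CPM in the vehicle group and 522 ± 30.7 CPM in the AVE0991 group, and Ctnnd1, which encodes p120-catenin, at 108 ± 5.37 and 107 ± 4.97 CPM. The smallest p of the list belonged to Nectin3, a nectin of puncta adherentia (36.1 ± 4.77 CPM in vehicle, 23.6 ± 2.55 CPM in AVE0991, log2 fold change -0.61, adjusted p = 0.085). Next came Ctnna2, the neuronal alpha-catenin (185 ± 22.1 CPM in vehicle, 120 ± 19.4 CPM in AVE0991, -0.63, adjusted p = 0.1). For both, all AVE0991 libraries lay below the vehicle libraries, as for 16.3% of all genes tested.

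Of 12 genes of cadherin cleavage and turnover, 0 were called by edgeR, with 5 at an unadjusted p under 0.05, beside the 23.6% of all genes. DESeq2 and limma-voom called 2 each, beside 10.9% and 6.36% of all genes. Of the 12, 10 were above and 2 below 0, with a median of 0.24. Adam10, the protease that sheds the outer part of N-cadherin, stood at 63.8 ± 1.98 and 56.2 ± 10.6 CPM. Furin, a convertase that removes the cadherin prodomain, had the smallest p (49.3 ± 0.193 CPM in vehicle, 76.7 ± 18.6 CPM in AVE0991, log2 fold change 0.64, adjusted p = 0.122). Its AVE0991 libraries stood at 55.3, 85.2 and 89.6 CPM, again higher in those with raised cerebellar markers, and its log2 fold change was 0.17 with replicate 1 alone. Pcsk6, a related convertase, followed at 1.09 (adjusted p = 0.145); it stood at 37.5 CPM in AVE0991 replicate 1 and at 90.5 and 107 CPM in replicates 2 and 3, the libraries with raised cerebellar markers, against 36.8 ± 2.16 CPM in vehicle. Of 17 genes of cadherin signalling, 0 were called by edgeR, with 4 at an unadjusted p under 0.05, beside the same 23.6%. DESeq2 and limma-voom called 1 each, beside the same 10.9% and 6.36%. Of the 17, 11 were above and 6 below 0, with a median of 0.10. Fgfr1, a growth factor receptor that binds N-cadherin (log2 fold change 0.74, adjusted p = 0.125), and Fer, a kinase that binds p120-catenin (-0.39, adjusted p = 0.134), had the smallest p. The AVE0991 libraries of Fgfr1 stood at 112, 208 and 172 CPM, higher in the same libraries, and its log2 fold change was 0.20 with replicate 1 alone.

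The genes closest to Cdh12 in pattern were found from the root mean square difference between log2 CPM profiles over the 6 libraries, each centred on its own mean. Among 9865 named genes with a mean of at least 10 CPM these were Zfp738 (0.098), Samd5 (0.143), Nrg3 (0.167), Il1rapl1 (0.171) and Marchf1 (0.171). Zfp738, a zinc finger gene, stood at 23.5, 17.8 and 20.2 CPM in the vehicle group and 8.04, 7.21 and 8.13 CPM in the AVE0991 group. Nrg3, a neuregulin ligand of ErbB4, stood at 495, 230.1 and 303 CPM in the vehicle group and 113, 90.9 and 125 CPM in the AVE0991 group. Vehicle replicate 1 was the highest library for all 5, as for Cdh12, and AVE0991 replicate 2 the lowest. Their transcripts held 36.2% to 49.5% GC, with Nrg3 at the top and Il1rapl1, a synaptic adhesion receptor, at the bottom. Of the other cadherins of the set, Cdh11 was closest to Cdh12 (0.385), at place 154 of 9865, and Cdh4 farthest (0.914), at place 7947.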

How the data were processed

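Ribosome-depleted total RNA was sequenced from 6 libraries, 3 per group. The aligner was HISAT and the build mm9, per the submitters' processing notes; no version, counter, strand setting or annotation is named in the labels used here. The authors deposited estimated counts for 36210 gene rows and FPKM per library, the latter unit inferred from the values. Their second table holds a log2 fold change (AVE0991 over vehicle) with a p-value and q-value from DESeq2, per the file headers; its p- and q-values were not used. Of 11824 circular RNA rows, fitted apart, none is tied to a gene in the files, so none is given here.

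Counts were rounded and fitted in R 4.3.3 with edgeR 4.0.16 (filterByExpr, TMM, robust quasi-likelihood F test, no covariates), with Benjamini-Hochberg adjustment over 20363 genes. Each SE came from the fold change and its F statistic. DESeq2 1.42.0 and limma 3.58.1 served as alternatives. The GC correction used the lowess of median deviations in 60 GC bins as an offset; 82.8% of tested genes and all 10 cadherins had a GC value. Counts of 4 of the 10 genes were whole numbers in all libraries; the others carried shared reads, and without a stated use of strand overlapping genes cannot be told apart. No library pair agreed within sampling noise (smallest chi-square per gene 16.4). The labels do not say that libraries came from separate animals; each p-value thus reflects the spread among these libraries, which may be technical.

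The members, gene lists and marker lists were chosen with earlier results of these data known. All 10 members were named; from each list the called genes, or the 2 with the smallest p, and the 5 genes most like Cdh12. Further genes in the text (Ctnnb1, Ctnnd1, Adam10, Cdh7, Cdh15, Cdh18 and Cdh22) were named for their role or after their values were seen.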

Additional observations from a re-analysis of the deposited data

How the results depend on the processing

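The log2 fold change of Cdh12 was below 0 in all 22 alternatives, from -1.68 to -0.80. It was -0.81 with the GC correction, -0.80 with that correction and the replicate block, and -0.87 with GC content from the longest transcript of any kind, an alternative added after the data were seen; without single libraries it ran from -1.59 (vehicle replicate 2) to -1.25 (vehicle replicate 1). Cdh10, whose longest transcript retains an intron, was above 0 only with GC content from the longest transcript of any kind (0.04). Cdh12 was not called under any GC setting, with the replicate block, with circular RNA rows in the fit, without AVE0991 replicates 2 and 3, or without any single library other than AVE0991 replicate 1. The median of the 10 cadherins was -0.35, -0.39 and -0.18 under the same 3 GC settings, -0.45 without AVE0991 replicates 2 and 3, -0.49 with limma on log2(FPKM + 1), and -0.64 to -0.49 without single libraries. In the GC-corrected values 3 of the 10 did not overlap, and 6 to 8 did not without single libraries. No share over all genes is given for these settings, so nothing is read from these counts either. Without Cdh13 the mean summed FPKM was 102 in vehicle and 74.2 in AVE0991 libraries; without single libraries it was 136 to 150 and 100.01 to 106.

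Counts of calls depended on the fit. Against 7 genes higher and 169 lower, DESeq2 called 885 and 1215, limma-voom 525 and 770, the fit without a filter 58 and 379, and the fit of genes averaging 1 CPM or more 18 and 328. The length correction called 12 higher. Limma on FPKM called 287 lower (pseudocount 0.1) and 310 lower (pseudocount 1). The GC correction called 1 higher and 0 lower with either choice of transcript, with 2981 genes at an unadjusted p under 0.05, and 1 fit of gene and circular RNA rows called 1 and 1. Without AVE0991 replicates 2 and 3, where the lone library is assumed to vary like the others, both counts were 0. Without single libraries they ran from 0 to 1386 and from 0 to 995, with every call lost except without AVE0991 replicate 1. The cause of these changes was not tested.

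With the replicate block, 0 genes were called in either direction (3937 at an unadjusted p under 0.05), and 0 with the block and the GC correction. Deviations of same-numbered libraries had correlations of -0.02, 0.09 and -0.35, so the numbers were not taken to pair the libraries.

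Of the 13 other cadherins, 1 was called in the fit above. DESeq2 called 4 (10.9% of all genes), limma-voom 3 (6.36%) and edgeR without a filter 3 (1.3%). With the GC correction, the block, both, the longest transcript or circular RNA rows in the fit, 0 were called. DESeq2 and limma-voom called 3 and 2 catenins and partners, 2 and 2 cleavage genes and 1 and 1 signalling genes, beside the same 10.9% and 6.36%. Without single libraries the 4 lists had 0 to 6, 0 to 4, 0 to 3 and 0 to 1 calls. These calls came only without AVE0991 replicate 1, where 11.4% of all genes were called. Cdh7 and Cdh18 changed sign without AVE0991 replicates 2 and 3 (-0.55 and -0.53). The lowest estimated count among the cadherins of the set was 148, for Cdh9 in AVE0991 replicate 2.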
